A study of Homo sapiens with 18 samples.

Results

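DLD-1 cells that overexpressed LIN28B and received alpelisib (LIN28B plus alpelisib cells) were compared with DLD-1 cells carrying an empty vector (EV cells). The comparison took every gene with a level of at least 1 TPM (a gene's length-scaled share of all transcripts in a library) in at least 3 of the 6 libraries. That rule kept 15447 of the 61806 genes in the deposited table. DLD-1 is a human colorectal adenocarcinoma line. The comparison asks which genes called in LIN28B cells returned to the EV level, or went past it, when a phosphatidylinositol 3-kinase (PI3K) inhibitor was added, and which genes left the EV level in LIN28B plus alpelisib cells without being called in LIN28B cells.

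The LIN28B plus alpelisib group held 3 libraries of LIN28B-overexpressing DLD-1 cells given 5 µM alpelisib. The LIN28B group held 3 libraries of LIN28B-overexpressing DLD-1 cells without alpelisib, and the EV group held 3 libraries of untreated empty vector DLD-1 cells. All were grown in DMEM with serum and penicillin-streptomycin, and RNA was poly(A)-selected before sequencing. The length of treatment, the vehicle, the promoter that drove LIN28B and whether the lines were clonal are not given in the sources used here. EV cells given alpelisib were not analysed here, so LIN28B and alpelisib change together between the LIN28B plus alpelisib and EV groups. The untreated LIN28B group separates the LIN28B step from the alpelisib step, but whether alpelisib acts alike without LIN28B was not tested. Nothing in the labels says that the replicates came from separate cultures, so the p-values reflect how far these samples scatter, and that scatter may be technical. In bulk RNA, fewer cells of a kind and less RNA per cell cannot be told apart.

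LIN28B binds the precursors of let-7 microRNAs and keeps them from maturing. Mature let-7 microRNAs pair through their seed with messenger RNAs such as HMGA2 and IGF2BP2 and lower them. PI3K alpha, the enzyme that alpelisib inhibits, makes a membrane lipid that recruits the kinase AKT, and AKT and mTOR downstream of it drive glucose uptake, lipid synthesis, protein synthesis and growth. The mature let-7 microRNAs are printed because they are the family that LIN28B acts on. Capitals mark the seed, bases 2 to 8, which is GAGGUAG in all 8 let-7 5p forms that were looked up in RefSeq (GRCh38.p14). MicroRNAs were not among the transcripts described here.
hsa-let-7a-5p: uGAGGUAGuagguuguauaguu
hsa-let-7b-5p: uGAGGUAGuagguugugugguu
hsa-let-7d-5p: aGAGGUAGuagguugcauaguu
hsa-let-7g-5p: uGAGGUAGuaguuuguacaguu
hsa-let-7i-5p: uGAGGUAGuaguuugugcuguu
The mature forms lie on chromosome 9 for let-7a-1 (chr9:94175962-94175983, plus strand) and let-7d (chr9:94178841-94178862, plus strand), on chromosome 22 for let-7b (chr22:46113691-46113712, plus strand), on chromosome 3 for let-7g (chr3:52268336-52268357, minus strand) and on chromosome 12 for let-7i (chr12:62603691-62603712, plus strand).

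Between 23010 and 23891 genes had a TPM above 0 in each of the 9 DLD-1 libraries. Pearson's r of log2(TPM + 1) across genes, which are not independent replicates, lay between 0.9768 and 0.9849 within groups and between 0.9475 and 0.9651 between LIN28B plus alpelisib and EV libraries. Mitochondrially encoded transcripts made up 15.8%, 14.8% and 10.6% of the LIN28B plus alpelisib libraries, 10.3%, 10.4% and 11.1% of the LIN28B libraries, and 9.23%, 10.2% and 11.8% of the EV libraries. The first and second alpelisib libraries therefore stood above every other library, while the third lay among the EV values. TPM fixes the total of a library and keeps no sequencing depth, so the depth is unknown. EPCAM (656 to 729 TPM) and KRT8 (3960.1 to 4432 TPM), from a list of 10 colorectal epithelial markers, were high in all 6 libraries compared. KRT18, KRT19, CDH1, CDX2 and KRT20 of that list did not fall below 119.9 TPM. VIL1, LGALS4 and CEACAM5 were far lower, between 6.27 and 19.7 TPM. Of the leukocyte markers, PTPRC did not pass 0.108 TPM, while CD68, LYZ and CD14 reached 6.10, 4.15 and 1.73 TPM. Of the fibroblast markers, COL1A2, DCN and LUM were listed at 0, while COL1A1 lay between 1.77 and 3.65 TPM and PDGFRB between 1.16 and 3.16 TPM.

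The difference from EV was broad. At a Benjamini-Hochberg adjusted p under 0.05 in limma on log2(TPM + 1), 1794 genes (11.6% of those tested) were higher and 3851 (24.9%) were lower in LIN28B plus alpelisib cells than in EV cells. Both shares are the background for the list counts below. At a difference of 2-fold or more on the log2(TPM + 1) scale, 257 genes (1.66%) were higher and 478 (3.09%) were lower. In LIN28B cells against the same EV libraries, 251 genes (1.62%) were higher and 264 (1.71%) were lower. In LIN28B plus alpelisib cells against LIN28B cells, 1677 genes (10.9%) were higher and 4188 (27.1%) were lower. These comparisons share libraries. At an unadjusted p under 0.05 in limma, 7118 of the 15447 genes differed from EV with alpelisib and 2453 in LIN28B cells, in either direction. Those totals are the background for the list counts at that threshold. Of the 5645 genes called against EV with alpelisib, 1691 higher and 3685 lower, 95.2% together, were not called in LIN28B cells against EV. That share is near the one over all genes, as 14932 of the 15447 tested were not called in LIN28B cells. Of the 515 genes called in LIN28B cells, 269 were also called with alpelisib. The surplus of lower calls depended on scaling. The median log2 difference over all genes tested was −0.10, and 31.8% of calls were higher. After median-of-ratios scaling the median was −0.0014 over 15422 genes, with 2606 higher and 3196 lower calls, 44.9% of them higher.

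LIN28B itself, the check of the overexpression, was far above EV in both LIN28B groups but lower with alpelisib. LIN28B had 149.7, 139 and 141 TPM in LIN28B plus alpelisib cells, 493, 483 and 408 TPM in LIN28B cells and 2.74, 1.17 and 1.38 TPM in EV cells. No library of either LIN28B group came near the EV libraries, and the alpelisib libraries did not overlap the LIN28B libraries. The limma log2 difference was 5.75 between LIN28B plus alpelisib and EV cells (adjusted p = 2.22e-13) and −1.68 between LIN28B plus alpelisib and LIN28B cells (adjusted p = 1.05e-06). In GRCh38, LIN28B lies at chr6:104936616-105083332 and HMGA2 at chr12:65824131-65966295, both on the plus strand. The part that the lower LIN28B level plays in any difference between the alpelisib and LIN28B groups was not tested. LIN28A, the paralog, did not pass 0.0537 TPM in any of the 9 libraries.

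**Figure D1:**
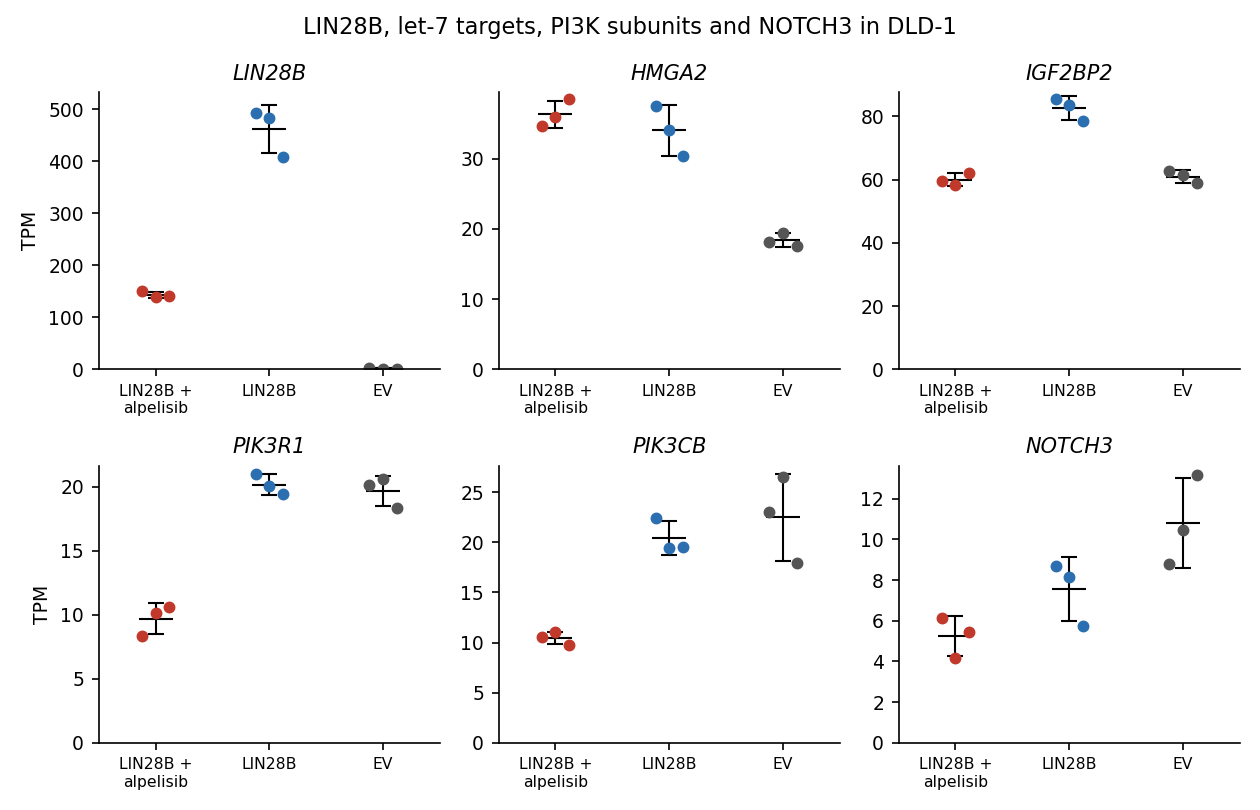
TPM (linear axes from 0) of LIN28B, HMGA2, IGF2BP2, PIK3R1, PIK3CB and NOTCH3 in LIN28B plus alpelisib, LIN28B and EV cells. Points are libraries, bars are means and whiskers are SD (n = 3). HMGA2 stays at 34.7 to 38.5 TPM with alpelisib, against 17.5 to 19.5 TPM in EV cells, IGF2BP2 lies on the EV level, and both PI3K subunits and NOTCH3 lie below it.

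The let-7 targets at the centre of the study split. HMGA2, a chromatin protein that let-7 represses strongly, had 34.7, 35.9 and 38.5 TPM in LIN28B plus alpelisib cells, 37.6, 34.1 and 30.4 TPM in LIN28B cells and 18.1, 19.5 and 17.5 TPM in EV cells. Both LIN28B groups stood clear of EV and overlapped each other, so HMGA2 remained 1.98-fold above EV with alpelisib (log2 difference 0.95, limma adjusted p = 1.73e-05). IGF2BP2, an RNA-binding protein and let-7 target, had 59.5, 58.2 and 62.2 TPM in LIN28B plus alpelisib cells, 85.6, 83.7 and 78.4 TPM in LIN28B cells and 62.7, 61.3 and 58.8 TPM in EV cells. Its alpelisib libraries overlapped the EV libraries and lay below all LIN28B libraries. The IGF2BP2 difference from EV was −0.02 log2 with a 95% interval of −0.18 to 0.14, against 0.43 log2 in LIN28B cells (limma adjusted p = 0.00515). IGF2BP3 averaged 7.67 ± 1.38 TPM with alpelisib and 12.5 ± 3.38 TPM in EV cells (SD, n = 3 each) and was not called (limma adjusted p = 0.0648), although it was called without EV replicate 3 (adjusted p = 0.034) and when the LoVo libraries were left out of the spread estimate (0.0212). IGF2BP1 was at 0.261 TPM or less and was not tested.

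Of 34 let-7 target mRNAs tested, 6 were higher and 7 lower than EV with alpelisib, with a median log2 difference of −0.16. Over all genes 11.6% were higher and 24.9% lower, with a median of −0.10. In LIN28B cells 4 of the 34 were higher than EV and none was lower in limma (median 0.23, against 0.017 over all genes). At an unadjusted p under 0.05 in limma, 14 were higher and 1 was lower (2453 of all 15447 genes, either way). Of the 4 called, IGF2BP2 and DNA2, a replication nuclease, returned to the EV level, while HMGA2 and CDC25A, a cell cycle phosphatase, did not. Apart from HMGA2, the higher members included HRAS (0.63), MYC (0.65, just lost at an adjusted p of 0.051 in limma without alpelisib or EV replicate 3) and CDC25A (0.73). FNDC3B (−1.12) and RRM2 (−0.91) were lower, all on the log2(TPM + 1) scale against EV. After median-of-ratios scaling the counts became 9 higher and 7 lower.

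More PI3K pathway genes were lower than higher with alpelisib, against EV, as was so over all genes tested (24.9% lower, 11.6% higher). PIK3R1, a regulatory subunit that holds the catalytic subunit, had 8.34, 10.1 and 10.6 TPM in LIN28B plus alpelisib cells, 21.01, 20.03 and 19.4 TPM in LIN28B cells and 20.1, 20.6 and 18.3 TPM in EV cells. LIN28B and EV libraries overlapped while all alpelisib libraries lay below both (log2 difference from EV −0.95, limma adjusted p = 0.000339). PIK3CB, the beta catalytic subunit, had 10.5, 11.02 and 9.80 TPM in LIN28B plus alpelisib cells, 22.4, 19.5 and 19.5 TPM in LIN28B cells and 23.02, 26.5 and 17.9 TPM in EV cells. Here too the alpelisib libraries were below every EV library (log2 difference −1.02, limma adjusted p = 0.000108). PIK3CA, which encodes the alpha subunit that alpelisib targets, averaged 10.5 ± 1.20 TPM with alpelisib and 11.8 ± 1.28 TPM in EV cells (SD, n = 3 each), a log2 difference of −0.15 with a 95% interval of −0.46 to 0.16.

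Of 39 PI3K, AKT and mTOR components tested, 1 was higher and 16 were lower than EV with alpelisib, with a median of −0.25. Over all genes tested 11.6% were higher and 24.9% lower, with a median of −0.10. In LIN28B cells, RPS6KB2 was higher and none was lower in limma (3 higher and 3 lower at an unadjusted p under 0.05). The lower members carried opposite roles. Beside the PI3K subunits they included GSK3B, a kinase that AKT inhibits (log2 difference −1.16), and INPP4B, a lipid phosphatase that opposes PI3K signalling (−1.05). MTOR, the kinase of both mTOR complexes, was the higher member, with 24.9, 22.7 and 25.7 TPM with alpelisib and 18.3, 18.5 and 17.5 TPM in EV cells (log2 difference 0.41, limma adjusted p = 0.00802). AKT1 overlapped EV (log2 difference −0.28, limma adjusted p = 0.037) and was no longer called after median-of-ratios scaling (adjusted p = 0.124), or without replicate 1 or 2 of either group (0.0597 to 0.174). After that scaling 3 of the 39 were higher and 11 were lower.

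Among 28 growth factor receptors and adaptors, 2 were higher and 16 lower than EV (median −0.42), against no higher and 1 lower in LIN28B cells. SHC1, an adaptor that links receptors to RAS, was at 50.9, 61.6 and 67.5 TPM with alpelisib and 148, 127 and 126 TPM in EV cells, without overlapping them. KIT (−0.82), GAB2 (−0.78), EGFR (−0.58) and IRS1 (−0.65) were also lower on the log2 scale. IRS2, the insulin receptor substrate that FOXO factors can induce, was higher, with 4.83, 3.79 and 3.98 TPM against 2.54, 2.98 and 2.61 TPM in EV cells (log2 difference 0.48, limma adjusted p = 0.0165), but leaving out alpelisib replicate 1 gave an adjusted p of 0.081 and leaving out EV replicate 1 one of 0.056. ERBB3 averaged 91.9 ± 5.18 TPM with alpelisib and 109.5 ± 7.98 TPM in EV cells (SD, n = 3 each) and lost its lower call after median-of-ratios scaling (adjusted p = 0.191), after rescaling without mitochondrial genes and LIN28B (0.0916) and without any single alpelisib library or EV replicate 1 or 2 (0.0503 to 0.157). INSR averaged 7.34 ± 2.58 TPM with alpelisib and 4.87 ± 0.696 TPM in EV cells and was not called (limma adjusted p = 0.0538), but was called without alpelisib replicate 2 (0.0271) or 3 (0.044) and after median-of-ratios scaling (0.0248).

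FOXO factors are held out of the nucleus by AKT. Of 27 FOXO factors and described targets, 3 were higher and 11 lower than EV with alpelisib, with a median of −0.27. Over all genes tested 11.6% were higher and 24.9% lower. In LIN28B cells none of the 27 was higher and 1 was lower. TXNIP, an arrestin that restrains glucose uptake, was at 159.8, 189 and 208 TPM with alpelisib and 625, 609 and 547 TPM in EV cells. FOXO3 itself was lower (−0.78 log2), as was the cell cycle inhibitor CDKN1B (−0.43), which lost the call without alpelisib replicate 1 (limma adjusted p = 0.0737). KLF6 (0.60) and YPEL3 (0.60) were higher, so the list did not move one way.

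NOTCH3, a Notch receptor, was lower than EV with alpelisib. NOTCH3 had 6.14, 4.17 and 5.44 TPM in LIN28B plus alpelisib cells, 8.72, 8.15 and 5.75 TPM in LIN28B cells and 8.78, 10.5 and 13.2 TPM in EV cells. The alpelisib libraries lay below the EV libraries without overlap, and the LIN28B libraries overlapped the alpelisib ones (log2 difference from EV −0.91, limma adjusted p = 0.00138; LIN28B against EV −0.47, 0.207). Of 29 Notch genes tested, 5 were higher and 10 lower than EV (median −0.11, near the −0.10 of all genes). The lower members included the receptor NOTCH1 (−0.39), the ligand JAG1 (−0.81), the protease ADAM10 (−1.08) and NCSTN, a subunit of gamma-secretase (−1.13), and another subunit of gamma-secretase, PSENEN, was higher (0.39). NOTCH1 lost the call without alpelisib replicate 1 (adjusted p = 0.051) or EV replicate 2 (0.0778) and after median-of-ratios scaling (0.0636), in limma, and PSENEN without replicate 1 of either group (0.0785 and 0.0881). The effector HES1 was higher, at 101, 84.4 and 95.6 TPM with alpelisib and 66.2, 66.02 and 71.2 TPM in EV cells (log2 difference 0.46, limma adjusted p = 0.00724), as were the feedback regulator NRARP (0.66) and LFNG, which modifies Notch receptors (1.11).

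The 515 genes called in LIN28B cells against EV were sorted by where they stood with alpelisib. A gene had passed EV if it was called on the other side of EV, stayed if it was still called on the LIN28B side, and returned if it was not called and the 95% interval of its difference lay within 0.5 log2 of EV. Genes not called with a wider interval were unresolved. In all, 48 genes (9.32%) passed EV, 170 (33.0%) returned, 221 (42.9%) stayed and 76 (14.8%) were unresolved. The filter used only the alpelisib and EV libraries, so a gene above 1 TPM only in LIN28B cells was not sorted. With any value above 0 in 1 of the 6 libraries as the filter, 126 of 344 genes (36.6%) returned and 25 (7.27%) passed. Of those that stayed, 87 had an estimate closer to EV than in LIN28B cells and 134 one further from it. Only the estimates were compared for this split. Against LIN28B cells, 8 of the 87 and 61 of the 134 were called, as were 150 of the 170 that returned. Called genes of LIN28B against EV fell to between 194 and 250 when any 1 of the 3 EV or 3 LIN28B libraries was left out. Leaving out any 1 of the 9 libraries gave 15 to 41 passed (6.68% to 12.4%), 59 to 138 returned (26.0% to 33.8%), 37 to 68 closer, 52 to 124 further and 22 to 107 unresolved, and passed was 31 without alpelisib replicate 1 or 2. The EV libraries enter both differences, so an EV value that is high or low by error moves both the same way.

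Position differed by direction of the LIN28B shift, though the contrast itself was not tested. Of the 251 genes higher in LIN28B cells, 40.2% returned, 10.8% passed EV and 32.7% stayed higher. Of the 264 genes lower in LIN28B cells, 26.1% returned, 7.95% passed EV and 52.7% stayed lower. Genes with an estimate further from EV than in LIN28B cells were 15.1% of the raised genes and 36.4% of the lowered ones. The lean toward lower values with alpelisib enters these shares. They are the background for the position counts within the lists below. After median-of-ratios scaling 37.2% of 282 raised genes and 33.4% of 425 lowered genes returned, and 40.8% and 48% stayed.

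**Figure D2:**
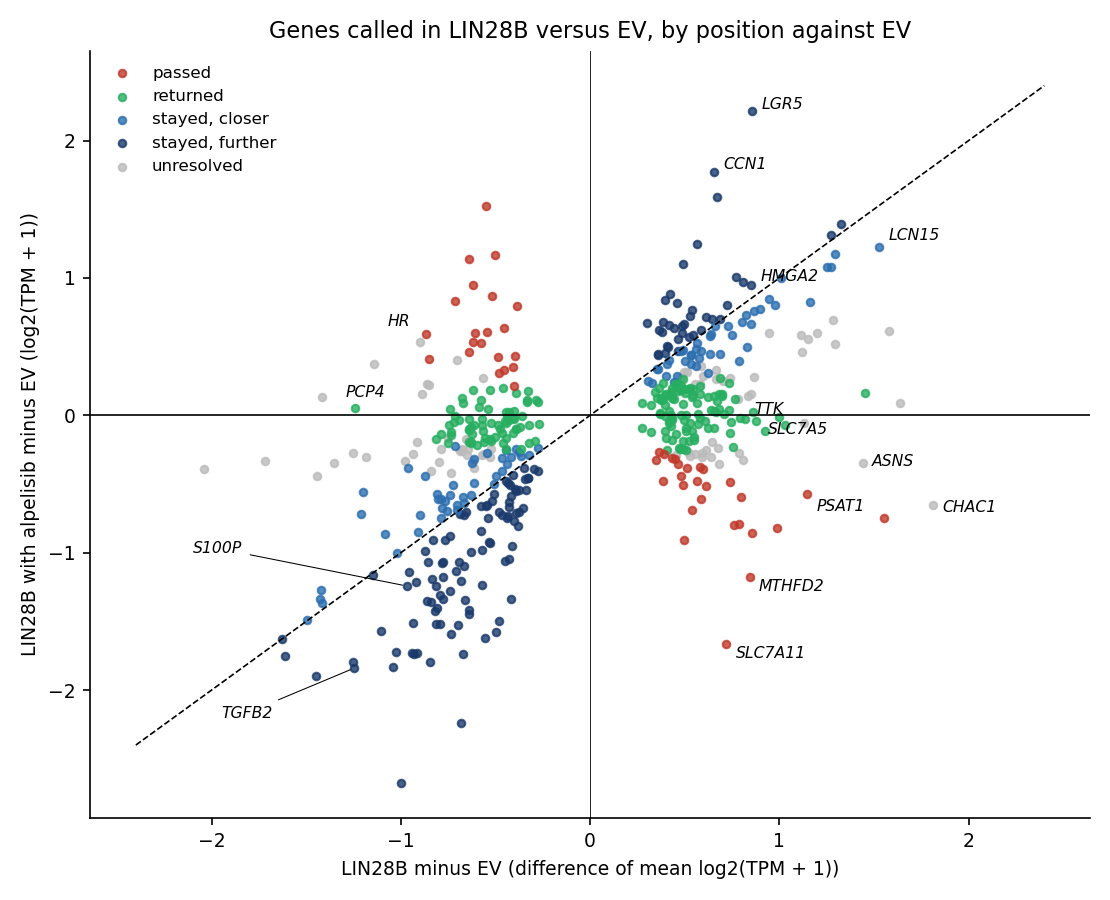
Each point is 1 of the genes called in LIN28B cells against EV cells, LIN28B itself left out. The y axis is the log2(TPM + 1) difference of LIN28B plus alpelisib cells from EV cells, the x axis that of LIN28B cells from EV cells, and colours give the position against EV. Points on the dashed line differ from EV equally with and without alpelisib. PSAT1 (−0.57 against 1.15) has crossed 0, TTK (−0.03 against 0.82) lies at 0 and LGR5 (2.21 against 0.85) lies beyond the line.

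Many genes of amino acid synthesis and uptake were higher in LIN28B cells, and none of those was called above EV with alpelisib. They belong to the programme of ATF4, a transcription factor that cells make when amino acids run short or mTORC1 is active. Of 35 ATF4 genes tested, 18 were higher and none lower in LIN28B cells (median 0.58). At an unadjusted p under 0.05 in limma, 25 were higher and none was lower (2453 of all 15447 genes, either way). With alpelisib, in contrast, 1 was higher and 20 were lower than EV (median −0.48). Against LIN28B cells, 1 was higher and 30 were lower with alpelisib. Of the 18 genes, 10 had passed EV, 5 had returned, 3 were unresolved and none had stayed raised. After median-of-ratios scaling 1 of the 35 was higher and 16 were lower than EV. In all 18 genes LIN28B replicate 2 was the lowest of the 3 LIN28B libraries.

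PSAT1, an enzyme of serine synthesis, had the largest rise in LIN28B cells among genes that passed EV without overlapping it. PSAT1 had 36.6, 36.01 and 39.9 TPM in LIN28B plus alpelisib cells, 139, 96.5 and 149 TPM in LIN28B cells and 59.3, 54.7 and 54.9 TPM in EV cells. No libraries of different groups overlapped, with LIN28B highest and alpelisib lowest (log2 difference with alpelisib from EV −0.57, limma adjusted p = 0.00271; LIN28B from EV 1.15, 0.000152). MTHFD2, a mitochondrial folate enzyme, had 45.5, 46.3 and 50.7 TPM in LIN28B plus alpelisib cells, 219, 153 and 224 TPM in LIN28B cells and 121, 119 and 89.6 TPM in EV cells. Its alpelisib level was 0.433-fold the EV level, below every EV library. SLC7A11, which imports cystine, had 0.783, 0.821 and 1.01 TPM in LIN28B plus alpelisib cells, 9.88, 6.43 and 10.5 TPM in LIN28B cells and 4.67, 4.81 and 5.32 TPM in EV cells. SLC7A11 was near 1 TPM in all 3 alpelisib libraries, a log2 difference of −1.66 from EV (limma adjusted p = 3.79e-06). PHGDH, the first enzyme of serine synthesis (−0.49 with alpelisib, 0.74 in LIN28B cells), the amino acid carrier SLC1A4 (−0.79, 0.76), the stress factor DDIT3 (−0.85, 0.86) and the leucine sensor SESN2 (−0.59, 0.80) also passed EV. PHGDH lost the call without alpelisib replicate 1 or EV replicate 1 or 2 (limma adjusted p of 0.0614 to 0.0847), and SESN2 without replicate 1 or 2 of either group (0.0512 to 0.0657). ATF3, another stress factor, was called at adjusted p = 0.0497 with limma although its alpelisib libraries (3.42, 3.71 and 6.95 TPM) overlapped the EV libraries (8.88, 5.47 and 11.3 TPM), and the call was lost without alpelisib replicate 1 or 2 or EV replicate 1 or 3 (0.123 to 0.187).

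The carriers that exchange essential amino acids stopped at the EV level. SLC7A5, which imports leucine, had 41.9, 39.8 and 42.6 TPM in LIN28B plus alpelisib cells, 90.8, 66.4 and 82.4 TPM in LIN28B cells and 43.5, 43.5 and 40.9 TPM in EV cells. Alpelisib and EV libraries overlapped, and the log2 difference from EV was −0.04 with a 95% interval of −0.30 to 0.22. SLC7A1, an arginine carrier, and SLC3A2, the partner chain of SLC7A5, likewise returned (−0.12 and 0.02 log2 from EV). ASNS, asparagine synthetase, had 20.8, 20.2 and 25.4 TPM in LIN28B plus alpelisib cells, 82.5, 55.5 and 105 TPM in LIN28B cells and 26.3, 23.6 and 36.3 TPM in EV cells. CHAC1, a glutathione-degrading enzyme, had 4.49, 3.28 and 5.10 TPM in LIN28B plus alpelisib cells, 42.3, 14.1 and 35.99 TPM in LIN28B cells and 6.15, 6.33 and 9.59 TPM in EV cells. ASNS libraries overlapped EV, while CHAC1 libraries lay below EV without being called, and both were unresolved, with 95% intervals of −0.74 to 0.05 for ASNS and −1.34 to 0.03 for CHAC1. ATF4 mRNA averaged 486 ± 25.1 TPM with alpelisib, 619 ± 75.7 TPM in LIN28B cells and 513 ± 22.5 TPM in EV cells (SD, n = 3 each) and was not called against EV in either group. ATF5, a related factor, was the higher member (0.96 log2), and TRIB3, an ATF4 target not called in LIN28B cells, was lower (−1.28).

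The promoter windows of ASNS and CHAC1 are printed because both are described ATF4 targets and held the letters TGATGNAAN, the core of the composite element that ATF4 binds with C/EBP partners. Each run is the 250 bases before the RefSeq transcription start in GRCh38.p14, 5′ to 3′ on the gene's strand, with the match in capitals. ASNS lies on the minus strand (chr7:97872409-97872658) with the match starting 68 bases before the start, and CHAC1 on the plus strand (chr15:40953221-40953470) with the reverse complement of the letters 210 bases before it.
ASNS: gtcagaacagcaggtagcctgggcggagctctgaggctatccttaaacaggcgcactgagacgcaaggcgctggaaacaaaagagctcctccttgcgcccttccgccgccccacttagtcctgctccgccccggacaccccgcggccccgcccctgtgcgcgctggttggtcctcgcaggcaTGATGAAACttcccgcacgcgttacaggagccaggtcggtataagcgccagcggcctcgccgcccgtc
CHAC1: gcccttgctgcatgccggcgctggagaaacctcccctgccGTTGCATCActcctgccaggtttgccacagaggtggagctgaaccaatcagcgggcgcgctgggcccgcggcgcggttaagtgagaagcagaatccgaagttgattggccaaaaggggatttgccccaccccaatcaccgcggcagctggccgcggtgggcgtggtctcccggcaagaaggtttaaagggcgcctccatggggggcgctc
Both strands were searched in windows from 250 bases before to 50 after the start. The letters were in 9 of the 29 ATF4 genes with a window (31.0%), in 2.6% of the 10702 tested genes with a window and in 3.61% of all 35093 windows. The genes of this list were described as ATF4 targets in other work, so the share describes the list. A match describes the sequence and does not show binding.

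Aminoacyl-tRNA synthetases, which load amino acids onto tRNAs and are partly ATF4 targets, followed the same order. In LIN28B cells 7 of 20 were higher than EV, 10 at an unadjusted p under 0.05 in limma, and none was lower by either threshold. With alpelisib none was higher by either threshold and 9 were lower than EV (median −0.30). Against LIN28B cells 17 of the 20 were lower with alpelisib. Of the 7, GARS1, YARS1, AARS1 and CARS1 passed EV, IARS1 and TARS1 returned and MARS1 was unresolved. CARS1 lost its call without replicate 1 of either group (limma adjusted p of 0.0675 and 0.0741), and MARS1 gained one without EV replicate 3 (0.0238). GARS1, the glycine enzyme, had 37.1, 34.9 and 44.9 TPM in LIN28B plus alpelisib cells, 134, 102 and 119 TPM in LIN28B cells and 72.1, 63.98 and 67.1 TPM in EV cells. The groups did not overlap, and the log2 difference from EV was −0.79 with alpelisib (limma adjusted p = 0.00175).

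**Figure D3:**
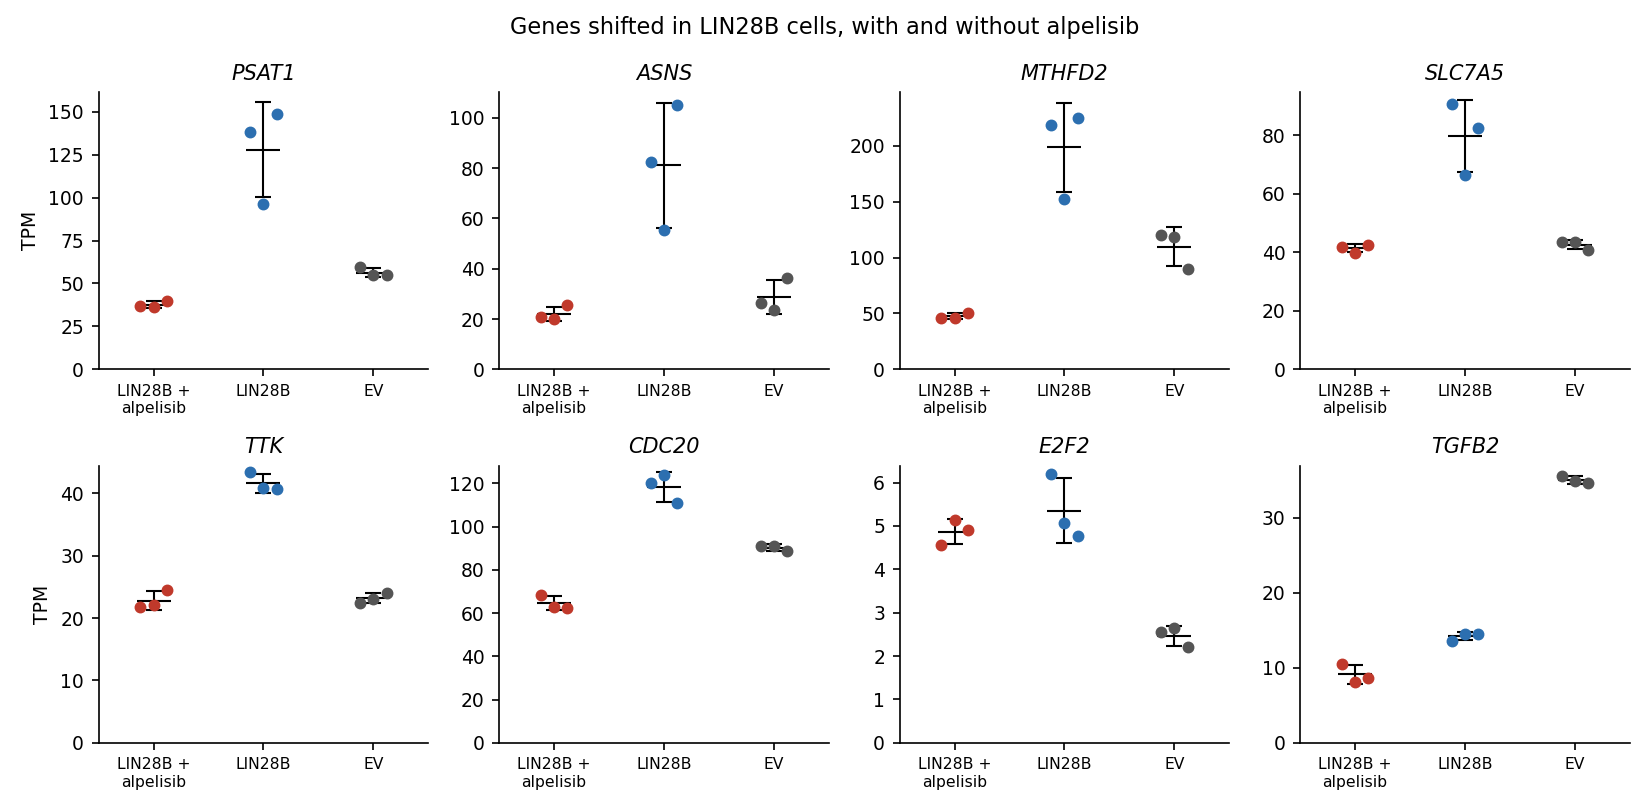
TPM (linear axes from 0) of PSAT1, ASNS, MTHFD2, SLC7A5, TTK, CDC20, E2F2 and TGFB2 in LIN28B plus alpelisib, LIN28B and EV cells. Points are libraries, bars are means and whiskers are SD (n = 3). PSAT1, MTHFD2 and CDC20 lie below EV with alpelisib, SLC7A5 and TTK lie on EV, E2F2 stays above it and TGFB2 stays below it.

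Some mitotic genes were higher than EV in LIN28B cells, and some were lower than EV with alpelisib. Of 35 tested, 11 were higher in LIN28B cells and none was lower (median 0.43). At an unadjusted p under 0.05 in limma, 26 were higher and none was lower (2453 of all 15447 genes, either way). With alpelisib 1 was higher and 12 were lower than EV (median −0.30), and 32 were lower than in LIN28B cells. Of the 11, 6 returned, 2 passed EV, 1 stayed higher and 2 were unresolved. Of all 251 genes higher in LIN28B cells, 40.2% returned and 10.8% passed EV. TTK, a spindle checkpoint kinase, had 21.7, 22.04 and 24.5 TPM in LIN28B plus alpelisib cells, 43.3, 40.8 and 40.7 TPM in LIN28B cells and 22.4, 23.04 and 24.1 TPM in EV cells. The alpelisib and EV libraries overlapped with a log2 difference of −0.03 and a 95% interval of −0.27 to 0.22. TOP2A, the topoisomerase that untangles chromosomes, and SGO1, which protects sister chromatid cohesion, also returned (−0.03 and −0.13 from EV). CDC20, which activates the anaphase-promoting complex, had 68.3, 62.9 and 62.4 TPM in LIN28B plus alpelisib cells, 120.2, 124 and 111 TPM in LIN28B cells and 91.02, 91.2 and 88.5 TPM in EV cells. CDC20 and the cyclin CCNA2 had passed EV, with log2 differences of −0.48 and −0.39 (limma adjusted p = 0.000438 and 0.0297), and AURKB, a chromosomal passenger kinase, stayed above EV (0.31). CCNA2 lost its call without any single library but alpelisib replicate 3 (0.0552 to 0.0896), and AURKB without alpelisib replicate 1 or EV replicate 1 or 2 (0.0737 to 0.105).

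Genes of DNA replication and the G1/S step mostly stayed above EV where LIN28B cells had been above it. Of 44 tested, 14 were higher in LIN28B cells and none was lower in limma (29 higher and 1 lower at an unadjusted p under 0.05). With alpelisib 15 were higher and 2 lower than EV (median 0.18), becoming 21 and 1 after median-of-ratios scaling. Of the 14, 9 stayed higher, 3 returned, 1 passed EV and 1 was unresolved. E2F2, an S-phase transcription factor, had 4.56, 5.14 and 4.90 TPM in LIN28B plus alpelisib cells, 6.20, 5.08 and 4.77 TPM in LIN28B cells and 2.55, 2.65 and 2.20 TPM in EV cells. Both LIN28B groups lay above EV and overlapped each other (log2 difference with alpelisib 0.76, limma adjusted p = 0.000779). GINS2, a part of the replicative helicase (0.72 with alpelisib, 0.61 in LIN28B cells), UHRF1, which maintains DNA methylation (0.77, 0.54), MCM3, a helicase subunit (0.48, 0.49), and ORC6 of the origin complex (0.40, 0.79) all stayed above EV. RRM2, which makes deoxynucleotides, was lower, with 101, 109 and 138 TPM with alpelisib and 234, 249 and 174 TPM in EV cells.

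Outside these groups, the largest LIN28B shifts that returned were in genes of unlike function. DPEP1, a membrane dipeptidase, had 3.82, 3.49 and 3.94 TPM in LIN28B plus alpelisib cells, 10.9, 10.7 and 10.3 TPM in LIN28B cells and 4.04, 3.43 and 2.44 TPM in EV cells. PCP4, a calmodulin-binding peptide, had 129, 141 and 134 TPM in LIN28B plus alpelisib cells, 58.2, 52.2 and 52.8 TPM in LIN28B cells and 143, 125 and 122 TPM in EV cells. DPEP1 was raised and PCP4 lowered in LIN28B cells, and both overlapped EV with alpelisib, with 95% intervals of −0.16 to 0.48 and −0.12 to 0.22. The matrix protein TNC (−0.07 log2 from EV, 1.03 in LIN28B cells) and the adhesion protein NECTIN1 (−0.01, 1.000) returned as well. Of the genes lower in LIN28B cells, 21 stood above EV with alpelisib. HR, a nuclear corepressor, had 13.6, 10.99 and 13.9 TPM in LIN28B plus alpelisib cells, 3.64, 4.68 and 3.74 TPM in LIN28B cells and 6.95, 9.39 and 8.20 TPM in EV cells. SPRY4, a brake on receptor signalling, had 22.7, 24.3 and 23.6 TPM with alpelisib, 9.73, 9.98 and 9.69 TPM in LIN28B cells and 12.9, 13.8 and 12.7 TPM in EV cells. HR (0.59), SPRY4 (0.80), YPEL3 (0.60) and BCAS1 (0.41) were all called above EV, although BCAS1 lost the call without any single library but alpelisib replicate 2 (limma adjusted p of 0.0566 to 0.0965). KALRN, a guanine nucleotide exchange factor, passed EV downward (−0.82), and its call was lost without alpelisib replicate 1 (adjusted p = 0.086), EV replicate 1 (0.0539) or EV replicate 2 (0.07).

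TGFB2 moved further below EV with alpelisib. TGFB2, a ligand of the TGF-beta receptors, had 10.5, 8.15 and 8.64 TPM in LIN28B plus alpelisib cells, 13.6, 14.5 and 14.5 TPM in LIN28B cells and 35.6, 34.8 and 34.7 TPM in EV cells. All LIN28B libraries lay below all EV libraries, and all alpelisib libraries lay below the LIN28B ones (log2 difference from EV −1.84 with alpelisib, limma adjusted p = 1.35e-07; −1.25 in LIN28B cells). Of 27 TGF-beta and BMP genes, 1 was higher and 7 were lower in LIN28B cells, and 7 were higher and 8 lower than EV with alpelisib (median −0.13). Over all genes tested with alpelisib, 11.6% were higher and 24.9% lower. Of the 8 genes called in LIN28B cells, 4 returned, 3 stayed and 1 passed. The returned genes were targets or ligands, namely ID1, an inhibitor of differentiation factors (0.20 from EV, −0.46 in LIN28B cells), BMP4 (−0.09, −0.37), JUNB (−0.07, −0.49) and ID2 (0.03, −0.40). ID1 was called above EV after median-of-ratios scaling (limma adjusted p = 0.00519) and without alpelisib replicate 3 (0.0471). ID3 passed EV (0.31, −0.48) but lost the call without alpelisib replicate 3 (0.0894) or EV replicate 2 (0.0716) or 3 (0.0567). CCN1 and CCN2, matricellular proteins, were higher (1.77 and 1.35).

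LGR5, a marker of intestinal stem cells, moved further from EV with alpelisib. LGR5 had 19.03, 18.1 and 17.7 TPM in LIN28B plus alpelisib cells, 7.39, 6.64 and 5.60 TPM in LIN28B cells and 3.46, 3.03 and 2.99 TPM in EV cells. The groups did not overlap, and alpelisib libraries were highest (log2 difference from EV 2.21, limma adjusted p = 1.91e-09). Of 21 stem cell and Wnt target genes, 6 were higher and 7 lower than EV (median −0.07), with 1 higher and 1 lower in LIN28B cells. ASCL2 (0.61) and PROM1 (0.90) were higher with LGR5, while CD44 (−0.98), NOTUM (−0.79) and RNF43 (−0.75), the last 2 inhibitors of Wnt signalling, were lower. LCN15, a lipocalin, had 26.4, 33.6 and 27.6 TPM in LIN28B plus alpelisib cells, 40.5, 34.1 and 33.5 TPM in LIN28B cells and 12.7, 8.34 and 15.5 TPM in EV cells. LCN15 and the drug efflux pump ABCB1 (1.17 with alpelisib, 1.30 in LIN28B cells) stayed above EV, with estimates closer to it than in LIN28B cells.

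Several epithelial surface and calcium-binding genes that were lower in LIN28B cells stayed low, as did 52.7% of all 264 genes lower there. S100P, a calcium-binding protein, had 254, 289 and 318 TPM in LIN28B plus alpelisib cells, 360.1, 319 and 358 TPM in LIN28B cells and 763, 667 and 609 TPM in EV cells. S100P was below EV in both LIN28B groups without overlap (log2 difference with alpelisib −1.24, limma adjusted p = 1.05e-05). Of 12 S100 genes, none was higher by either threshold and 6 were lower in LIN28B cells, and 2 were higher and 5 lower than EV with alpelisib (median −0.22). Of the 6, 5 stayed low, among them S100A14 (−0.71) and S100A9 (0.626 TPM in alpelisib replicate 1 and listed at 0 in the others, against 2.37, 3.68 and 2.05 TPM in EV cells). S100A6 returned, with 1971, 2177 and 1818 TPM with alpelisib, 1244, 1266 and 1305 TPM in LIN28B cells and 2289, 2102 and 2331 TPM in EV cells. Of 9 keratins, 5 were lower in LIN28B cells and 4 were lower than EV with alpelisib (median −0.18), and none was higher in either, also at an unadjusted p under 0.05 in limma. Of the 5, KRT19, KRT80 and KRT16 stayed low, while KRT8 and KRT18 returned to EV (−0.10 and 0.10), and the fourth lower keratin, KRT15, was not called in LIN28B cells. Neither returned keratin overlapped EV. KRT8 lay below it (3960.1 to 4237.5 TPM, EV 4240.7 to 4432.1 TPM) and KRT18 above it (3089.2 to 3129 TPM, EV 2785.6 to 2979.6 TPM). After median-of-ratios scaling 2 keratins, KRT18 among them (limma adjusted p = 0.0221), were higher and 4 lower than EV. KRT19, a keratin of simple epithelium, had 1717, 1838 and 1927 TPM in LIN28B plus alpelisib cells, 2845, 2888 and 2665 TPM in LIN28B cells and 3807, 3765 and 3711 TPM in EV cells. TMPRSS4, a membrane protease (−1.36), MMP14, a matrix protease (−1.16), the iron-binding lipocalin LCN2 (−1.57), PADI1, which converts arginine residues to citrulline (−2.68), and the secreted peptide gene IGFL1 (−1.34) stayed below EV. IGFL1P1, its pseudogene, was called lower too (−1.90), and reads shared between the copies make that value uncertain.

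Most antigen presentation genes called in LIN28B cells stayed low, as did 52.7% of all 264 genes lower there. Of 18 MHC class I genes, 5 were lower and none higher in LIN28B cells by either threshold, and 10 were lower and 1 higher than EV with alpelisib (median −0.39). HLA-B, a class I heavy chain, had 29.1, 32.5 and 45.6 TPM in LIN28B plus alpelisib cells, 41.9, 42.8 and 42.6 TPM in LIN28B cells and 61.4, 66.6 and 63.6 TPM in EV cells. The alpelisib libraries overlapped the LIN28B libraries and lay below EV (log2 difference −0.84, limma adjusted p = 0.00016). HLA genes are near-identical copies of one another, and how reads shared between them were counted was not given in the sources used here. The peptide transporter TAP1 (−0.49) and the light chain B2M (−0.61) were lower as well. Of 29 interferon response genes, 12 were lower and 1 higher than EV (median −0.27), with 2 lower and none higher in LIN28B cells. OAS1 (−0.80) and MX2 (−1.28) were lower.

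**Figure D4:**
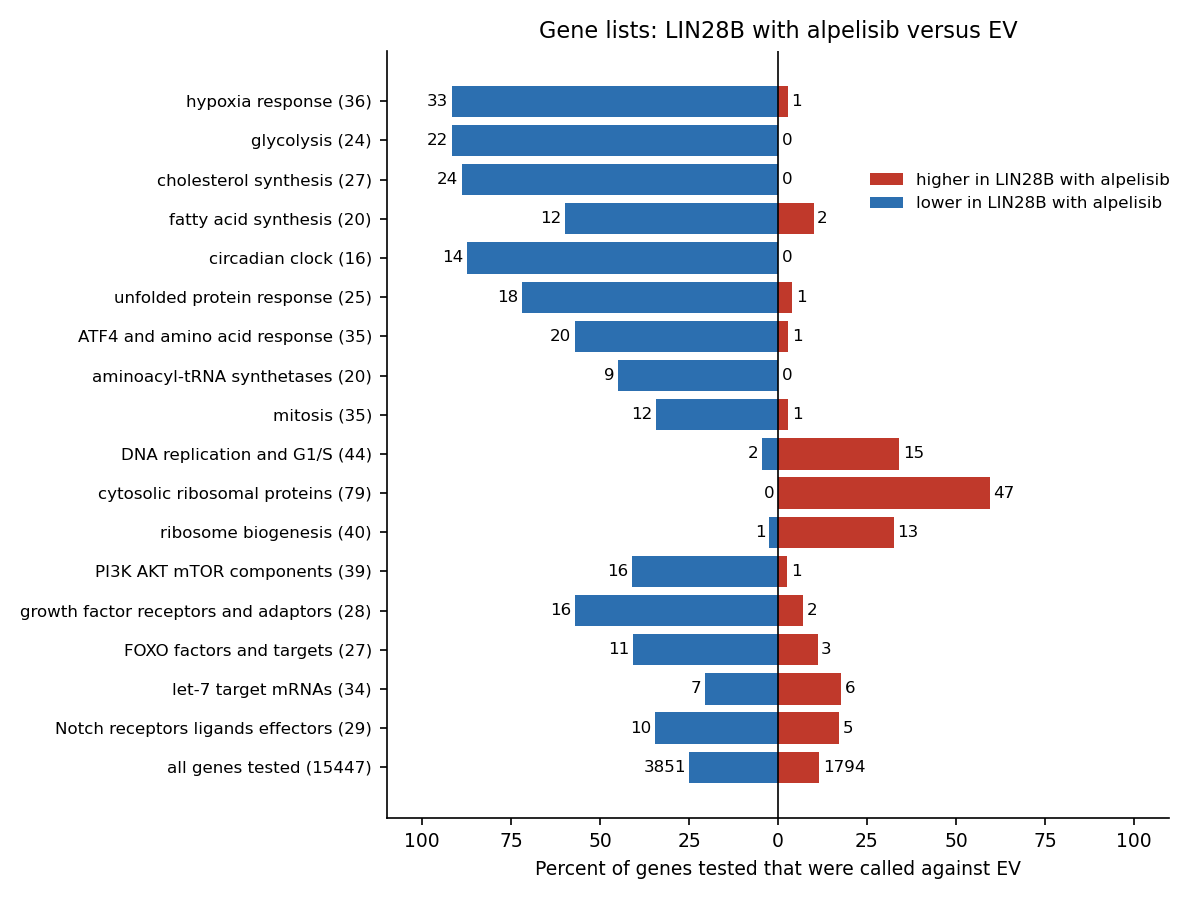
For 17 gene lists and for all genes tested, bars give the percent of tested members called higher (right, red) or lower (left, blue) in LIN28B plus alpelisib cells than in EV cells. Numbers beside bars are counts of called genes, and numbers in parentheses are genes tested. Hypoxia, glycolysis, cholesterol and clock genes are almost all lower, and the replication, ribosomal protein and ribosome biogenesis lists lean to higher values.

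Most of the largest falls below EV were in genes not called in LIN28B cells, as most genes tested were not. The hypoxia list had the lowest median. These genes are driven by HIF-1 when oxygen is short and also when PI3K and mTOR are active. Of 36 tested, 33 were lower and 1 was higher than EV with alpelisib, with a median log2 difference of −1.19. In LIN28B cells 1 was lower and none was higher in limma (4 lower and 4 higher at an unadjusted p under 0.05). DDIT4, an mTORC1 inhibitor, had 81.99, 109 and 97.3 TPM in LIN28B plus alpelisib cells, 1298, 959.6 and 1235 TPM in LIN28B cells and 841, 871 and 786 TPM in EV cells. DDIT4 with alpelisib was 8.65-fold below EV with no overlap (log2 difference −3.11, limma adjusted p = 4.15e-09). BHLHE40, a transcriptional repressor, had 14.6, 17.4 and 13.4 TPM in LIN28B plus alpelisib cells, 106, 101 and 103 TPM in LIN28B cells and 104, 115 and 95.2 TPM in EV cells. LIN28B and EV libraries overlapped for BHLHE40, and the alpelisib libraries were 6.90-fold lower on average. HILPDA, a lipid droplet protein (−2.39 log2), ANGPTL4, an inhibitor of lipoprotein lipase (−2.50), VEGFA, the vascular growth factor (−1.48), and HIF1A itself (−1.03) were lower. CA12, a carbonic anhydrase, was the 1 higher member, with 6.95, 6.17 and 6.93 TPM with alpelisib and 0.979, 1.51 and 0.629 TPM in EV cells, and BNIP3 and TMEM45A were not called.

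The promoters of BHLHE40, DDIT4 and ANKRD37 are printed because these genes had some of the largest falls and held ACGTG, the core letters of the hypoxia response element. Each is the 250 bases before the RefSeq start in GRCh38.p14, 5′ to 3′ on the plus strand, with matches on either strand in capitals. CACGTG is a palindrome in which the matches of both strands overlap. BHLHE40 (chr3:4979187-4979436) had matches 245, 174 and 149 bases before the start, DDIT4 (chr10:72273674-72273923) had 1 at 125 bases, and ANKRD37 (chr4:185396591-185396840) had matches at 162 and 143 bases.
BHLHE40: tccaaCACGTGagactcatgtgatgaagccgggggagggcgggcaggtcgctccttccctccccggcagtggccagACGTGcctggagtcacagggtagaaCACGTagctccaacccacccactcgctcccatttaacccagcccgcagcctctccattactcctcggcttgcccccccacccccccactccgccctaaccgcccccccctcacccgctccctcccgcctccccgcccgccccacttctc
DDIT4: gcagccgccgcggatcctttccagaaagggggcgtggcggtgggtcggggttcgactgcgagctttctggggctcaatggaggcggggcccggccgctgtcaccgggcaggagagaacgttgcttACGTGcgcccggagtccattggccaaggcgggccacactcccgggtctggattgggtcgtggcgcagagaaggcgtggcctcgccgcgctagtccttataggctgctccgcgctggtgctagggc
ANKRD37: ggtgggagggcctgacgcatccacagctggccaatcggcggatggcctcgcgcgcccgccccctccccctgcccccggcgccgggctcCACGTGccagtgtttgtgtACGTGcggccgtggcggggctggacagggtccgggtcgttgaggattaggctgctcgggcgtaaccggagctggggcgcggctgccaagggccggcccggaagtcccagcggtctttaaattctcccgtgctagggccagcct
In windows from 250 bases before to 50 after the start, ACGTG was in 18 of the 31 hypoxia genes with a window (58.1%), in 32.3% of the 10702 tested genes with a window and in 21.41% of all 35093 windows. The genes of this list were known from other work to answer to hypoxia, so the share describes the list. ANKRD37 had 24.1, 26.5 and 25.5 TPM with alpelisib, 97.4, 102 and 133 TPM in LIN28B cells and 97.6, 91.3 and 96.5 TPM in EV cells.

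Glycolytic mRNAs were lower from glucose import to lactate formation. Of 24 genes tested, 22 were lower and none higher, also at an unadjusted p under 0.05 in limma, than EV with alpelisib (median −0.82), and 1 was lower in LIN28B cells. After median-of-ratios scaling 20 were lower. SLC2A1, the glucose importer, had 255, 328 and 369 TPM in LIN28B plus alpelisib cells, 909, 961 and 896 TPM in LIN28B cells and 1237, 1275 and 1044 TPM in EV cells. HK2, the hexokinase at the entry (−1.16), PGK1 (−1.49), ENO2 (−1.49) and ALDOC (−2.24), enzymes of the middle steps, and PKM (−0.85), the last step, were lower on the log2 scale. LDHA, which makes lactate, had 1119.6, 1207 and 1299.8 TPM in LIN28B plus alpelisib cells, 2580.5, 2607 and 2304 TPM in LIN28B cells and 2614, 2631 and 2348 TPM in EV cells. GAPDH, often taken as an invariant control, had 5955, 5789 and 5991 TPM with alpelisib and 9589, 9431 and 9811 TPM in EV cells and did not overlap EV either (limma adjusted p = 3.12e-06). LDHB and TALDO1 were not called.

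Lipid synthesis genes, targets of the SREBP factors that act downstream of AKT and mTORC1, were lower too. Of 27 cholesterol synthesis and uptake genes, 24 were lower and none higher than EV by either threshold (median −0.88), and none was called in LIN28B cells in limma (1 at an unadjusted p under 0.05). INSIG1, which holds SREBP in the endoplasmic reticulum and is itself an SREBP target, had 59.9, 59.5 and 63.2 TPM in LIN28B plus alpelisib cells, 231, 250.3 and 207 TPM in LIN28B cells and 292, 278 and 309 TPM in EV cells. HMGCS1 (−1.65) and MSMO1 (−1.71), enzymes of the pathway, and SREBF2, an SREBP gene (−0.82), were lower. SCD, which makes monounsaturated fatty acids, had 142, 171 and 171 TPM in LIN28B plus alpelisib cells, 768, 749 and 689 TPM in LIN28B cells and 1077, 1103 and 1098 TPM in EV cells. SCD was 6.76-fold below EV (log2 difference −2.76, limma adjusted p = 1.05e-08). Of 20 fatty acid synthesis genes, 12 were lower and 2 higher than EV (median −0.46), with 2 lower in LIN28B cells. SREBF1 (−1.50), ACSS2 (−1.53) and FASN (−0.44) were lower, while FADS1, a desaturase, and MLXIPL, a glucose-sensing factor, were higher (0.78 and 0.55). FADS1 lost the call without alpelisib replicate 1 (limma adjusted p = 0.0508) and MLXIPL without EV replicate 2 (0.0608). Of 22 genes of fatty acid oxidation and lipid droplets, 11 were lower and 2 higher (median −0.33), with 2 lower in LIN28B cells. CPT1A, the gate to mitochondrial oxidation, was lower (−0.79).

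**Figure D5:**
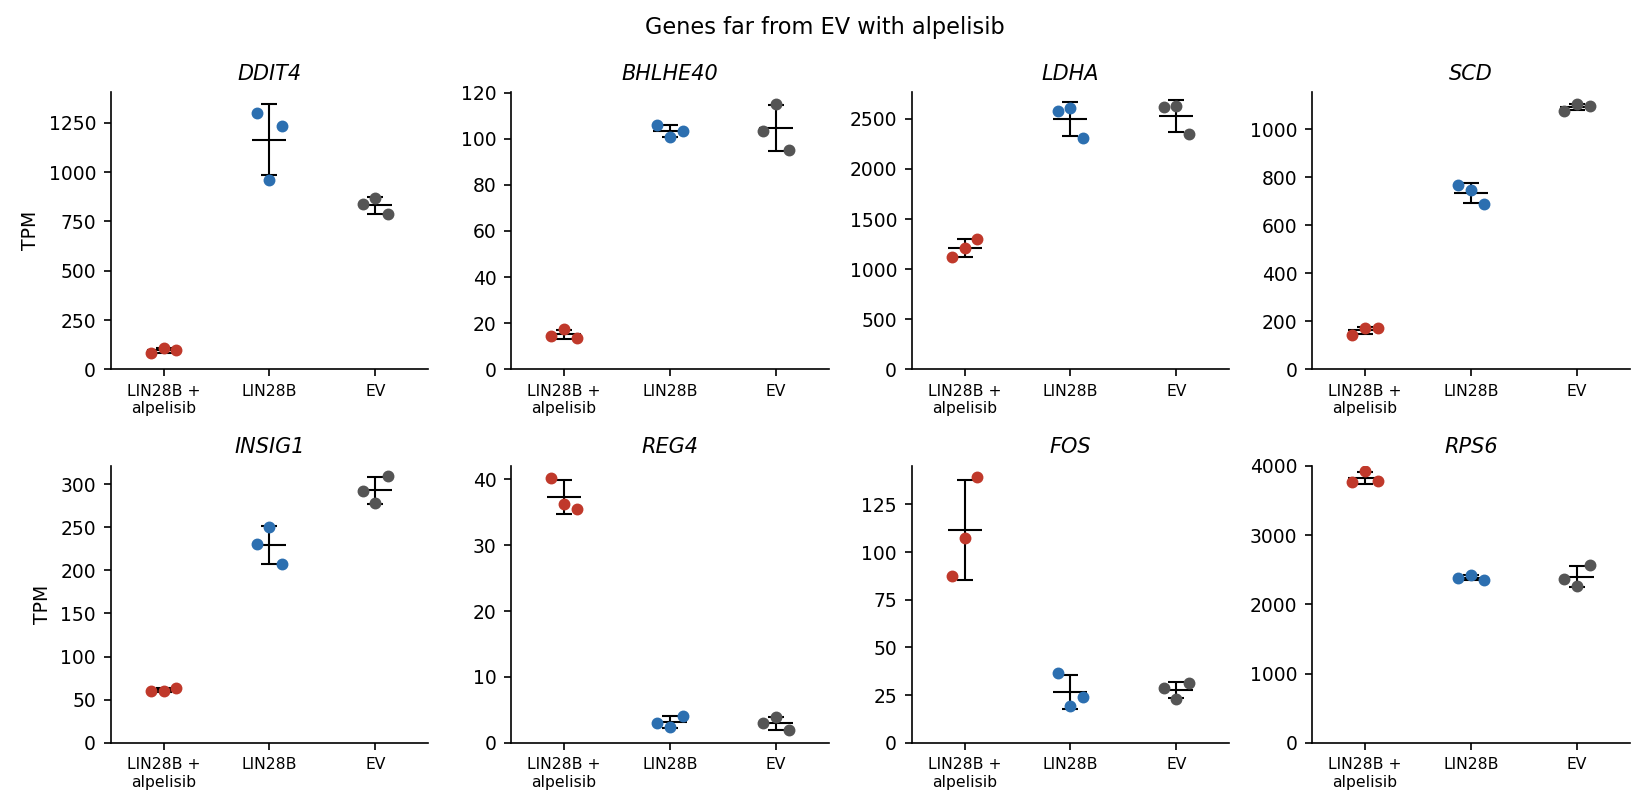
TPM (linear axes from 0) of DDIT4, BHLHE40, LDHA, SCD, INSIG1, REG4, FOS and RPS6 in LIN28B plus alpelisib, LIN28B and EV cells. Points are libraries, bars are means and whiskers are SD (n = 3). LIN28B and EV cells lie close together for BHLHE40, LDHA, REG4 and RPS6, and alpelisib libraries lie below them for the first 5 genes and above them for the last 3.

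Most genes tested of protein folding, redox defence and the clock were lower than EV with alpelisib. Of 25 unfolded protein response genes, 18 were lower and 1 higher than EV (median −0.61), and none was called in LIN28B cells in limma (2 at an unadjusted p under 0.05). HSPA5, the endoplasmic reticulum chaperone, had 182, 199 and 214 TPM with alpelisib and 378, 344 and 306 TPM in EV cells. SEL1L (−1.25) and DNAJB9 (−1.03), which serve the clearing of misfolded proteins, were lower, and DERL2 was higher (0.57). Of 18 NRF2 targets, 11 were lower and none higher by either threshold (median −0.52), against 1 higher and 1 lower in LIN28B cells. NQO1, a quinone reductase, had 98.9, 103 and 95.8 TPM with alpelisib and 269, 242 and 249.8 TPM in EV cells. Of 16 clock genes, 14 were lower and none higher by either threshold (median −0.997), and 1 was lower in LIN28B cells. PER1, a repressor of the clock, had 12.2, 12.1 and 13.96 TPM in LIN28B plus alpelisib cells, 43.5, 49.9 and 46.3 TPM in LIN28B cells and 45.5, 43.1 and 40.2 TPM in EV cells. DBP (−1.65), an output factor, NR1D1 (−1.35), a nuclear receptor repressor, and BMAL1 (−1.01), the activator, were lower as well. Whether the groups were harvested at the same hour was not given in the sources used here.

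Nutrient sensing and degradation genes leaned the same way. Of 14 arrestins and sensors of glucose and amino acids, 10 were lower and 2 higher than EV (median −0.78), and 1 was higher in LIN28B cells. ARRDC3, an arrestin relative of TXNIP, was lower (−1.81) and SLC2A5, a fructose carrier, was higher (1.29). Of 35 lysosome and autophagy genes, 18 were lower and 2 higher (median −0.32), and none was called in LIN28B cells in limma (6 at an unadjusted p under 0.05). CTSD, a lysosomal protease (−1.004), and ULK1, the kinase that starts autophagy (−0.68), were lower. Of 21 D cyclin, CDK inhibitor and MYC network genes, 12 were lower and 1 higher (median −0.43), with none called in LIN28B cells in limma (1 higher and 3 lower at an unadjusted p under 0.05). CDKN1A, which encodes the inhibitor p21, had 5.48, 7.62 and 6.46 TPM in LIN28B plus alpelisib cells, 33.3, 35.2 and 37.4 TPM in LIN28B cells and 41.9, 43.5 and 44.6 TPM in EV cells. CDKN1A was 6.64-fold below EV, and MYC was the higher member, at 66.3, 66.98 and 86.7 TPM with alpelisib and 53.6, 47.4 and 38.4 TPM in EV cells. Of 22 p53 targets, 6 were lower and 3 higher (median −0.24), and 1 was higher in LIN28B cells. Those p53 counts lay near the shares over all genes tested, 24.9% lower and 11.6% higher.

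Cytosolic ribosomal protein genes were the widest group on the higher side. Of 79 tested, 47 were higher and none lower than EV by either threshold with alpelisib (median 0.28), 63 were higher after median-of-ratios scaling, and none was called in LIN28B cells in limma (1 at an unadjusted p under 0.05). RPS6, a small subunit protein that the mTOR pathway phosphorylates, had 3763, 3921 and 3784 TPM in LIN28B plus alpelisib cells, 2379, 2423 and 2352 TPM in LIN28B cells and 2363, 2267 and 2568 TPM in EV cells. LIN28B and EV libraries overlapped and the alpelisib libraries stood above both (log2 difference 0.67, limma adjusted p = 4.06e-05). RPL14 (0.67), RPL37A (0.57) and RPL13 (0.52), large subunit proteins, were higher by similar amounts. These genes have many processed pseudogenes, and reads shared with them could have been split in counting. Of 40 ribosome biogenesis genes, 13 were higher and 1 lower (median 0.08), with 3 higher in LIN28B cells. RRS1 (1.05) and NOP56 (0.88), factors of ribosome assembly, were higher.

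The mitochondrial genome moved with single libraries. Of its 13 protein-coding genes 5 were higher and none lower than EV by either threshold (median 0.48), and none was called in LIN28B cells in limma, also at an unadjusted p under 0.05. MT-CO1, a subunit of cytochrome oxidase, had 28404, 26067 and 18119 TPM in LIN28B plus alpelisib cells, 15510.0, 15937 and 16740.0 TPM in LIN28B cells and 15070.0, 15845 and 18435 TPM in EV cells. Alpelisib replicates 1 and 2 were above every other library, and replicate 3 lay among the EV libraries. MT-CO1 was called at a limma adjusted p of 0.036, and without alpelisib replicate 1 or 2 the adjusted p was 0.158 or 0.113, and without EV replicate 1 or 2 it was 0.113 or 0.0938. MT-ND1 (0.60), MT-CO2 (0.54) and MT-ND3 (0.55) were lost without the same libraries, for example at 0.131, 0.189 and 0.167 without alpelisib replicate 1.

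The largest single rises included secreted proteins. REG4, a secreted lectin of enteroendocrine and goblet cells, had 40.2, 36.2 and 35.5 TPM in LIN28B plus alpelisib cells, 2.95, 2.35 and 4.11 TPM in LIN28B cells and 2.96, 3.86 and 1.999 TPM in EV cells. The alpelisib libraries were 12.7-fold above EV on average, and LIN28B libraries overlapped EV (log2 difference 3.31, limma adjusted p = 1.91e-09). IL37, an anti-inflammatory cytokine of the IL-1 family, had 32.2, 29.6 and 23.2 TPM in LIN28B plus alpelisib cells, 4.01, 5.56 and 4.23 TPM in LIN28B cells and 4.53, 5.49 and 6.40 TPM in EV cells. RAMP1, a receptor partner protein (2.08), and the noncoding RNA LINC01341 (2.15) were also among the largest rises. CDRT4, a gene of unknown function, was called higher (2.87) from 12.5, 15.7 and 3.91 TPM with alpelisib, against 1.82 TPM in EV replicate 1 and a listing at 0 in the other EV libraries.

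Several of the largest calls were in transcripts whose counts are uncertain. IER3-AS1 (3.78) and TUBA1B-AS1 (2.35) are antisense to IER3 and TUBA1B, and whether strand was used in counting was not given in the sources used here. IER3-AS1 was at 52.2, 44.9 and 14.9 TPM with alpelisib and 0.560, 0.854 and 4.18 TPM in EV cells, while IER3 itself was lower (−0.46). TUBA1B-AS1 was at 37.4, 32.1 and 6.08 TPM with alpelisib and 3.15, 4.54 and 1.93 TPM in EV cells, and its call was lost without alpelisib replicate 1 (adjusted p = 0.132) or 2 (0.111) and without any 1 EV library (0.0514 to 0.0898). In both antisense genes replicates 1 and 2 were the high ones, as in the mitochondrial share, and whether the 2 are linked was not tested. HNRNPA1L2, FAM223B and UPK3BL2 on the higher side, and RNU2-2P and PRSS2 on the lower side, belong to families of near-identical copies, and reads could have been split between them. RNU2-2P was listed at 0 in all alpelisib libraries, against 42.8, 6.10 and 6.47 TPM in EV cells, and its call (limma adjusted p = 0.0483) was lost without any 1 of the 6 libraries (0.0578 to 0.182). FAM223B was at 4.88, 7.71 and 4.23 TPM with alpelisib, against 2.87 TPM in EV replicate 1 and 0 in the other EV libraries, and was lost without any 1 library but EV replicate 1 (0.0534 to 0.13).

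Immediate early genes split. FOS, which forms AP-1 with JUN, had 87.4, 108 and 139 TPM in LIN28B plus alpelisib cells, 36.8, 19.4 and 24.2 TPM in LIN28B cells and 28.7, 23.2 and 31.1 TPM in EV cells. JUN had 41.1, 53.5 and 56.4 TPM with alpelisib, 30.4, 23.7 and 23.96 TPM in LIN28B cells and 16.2, 15.2 and 16.4 TPM in EV cells. Both were above EV without overlap with alpelisib (log2 differences 1.96 and 1.59), and EGR1 was too (1.28). Of 17 immediate early and AP-1 genes, 7 were higher and 6 lower than EV (median −0.07), becoming 7 and 3 after median-of-ratios scaling, with 2 higher and 1 lower in LIN28B cells. FOSL2 (−0.83) and FOSL1 (−0.42) were lower, but FOSL1 lost the call after that scaling (limma adjusted p = 0.0712) and without alpelisib replicate 1 (0.0547) or EV replicate 3 (0.0546). Of 17 genes that ERK signalling induces as feedback, 9 were lower and 1, SPRY4, was higher (median −0.33), and 1 was lower in LIN28B cells. DUSP5, a phosphatase that turns ERK off, had 12.2, 15.9 and 15.6 TPM with alpelisib and 51.3, 50.4 and 51.9 TPM in EV cells, and ETV5, a factor induced by ERK, was lower (−1.49).

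The remaining lists held smaller or mixed differences. Of 5 EGF family ligands tested, BTC was higher (0.94), TGFA (−0.80) and EREG (−0.52) were lower, and none was called in LIN28B cells in limma (2 at an unadjusted p under 0.05). EREG lost the call without replicate 1 of either group or EV replicate 2 (0.0505 to 0.0808). Of 21 epithelial chemokine and inflammation genes, 4 were higher and 12 lower (median −0.41), among them CXCL2 (0.90) on the higher side and CXCL8 (−1.21) and BIRC3 (−1.26) on the lower. Of 17 tight junction genes, 10 were lower and 1 higher (median −0.32), with CLDN4 (−0.66) lower. Of 16 genes of epithelial and mesenchymal state, 8 were lower and 2 higher (median −0.35). ITGA5, a fibronectin receptor subunit, was lower (−1.51), and OVOL2, an epithelial factor, was higher (1.46). LGALS1, a galectin, had 45.1, 37.2 and 41.1 TPM with alpelisib and 245, 199.6 and 295 TPM in EV cells, 1 of the largest falls.

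Differentiation markers moved in both directions, as did the genes tested as a whole (11.6% higher and 24.9% lower than EV). The goblet and enterocyte counts lay near those shares. Of 15 goblet and secretory genes, 2 were higher, REG4 and LCN15, and 3 were lower (median 0.02), among them AGR2, a goblet cell disulfide isomerase (−0.99). Of 16 enterocyte genes, 3 were higher and 3 lower (median 0.04), becoming 5 and 3 after median-of-ratios scaling, with CEACAM6 (1.11) and the intestinal factor CDX2 (0.47) higher and CEACAM1 (−1.03) lower. CDX2 lost the call without alpelisib replicate 3 (limma adjusted p = 0.0554). Of the 10 colorectal epithelial markers, 2 were higher and 2 lower, becoming 4 and 1 after that scaling. CDH1, the epithelial cadherin, had 194, 244 and 259 TPM with alpelisib and 303, 357 and 298 TPM in EV cells and overlapped no EV library, but was no longer called after median-of-ratios scaling (adjusted p = 0.0781) or without any single library but alpelisib replicate 3 (0.0577 to 0.194). Of 8 fibroblast, 8 leukocyte and 6 endothelial markers, 2, 3 and 1 were high enough to test, and CD68, a macrophage and lysosome gene, was the only one called, lower at 0.706, 1.38 and 0.381 TPM with alpelisib than at 3.71, 6.10 and 5.01 TPM in EV cells. The summed leukocyte markers ran from 3.27 to 6.46 TPM with alpelisib and from 6.51 to 7.67 TPM in EV cells. The summed fibroblast markers ran from 3.45 to 4.95 TPM with alpelisib and from 4.43 to 5.66 TPM in EV cells, and the endothelial markers from 1.79 to 2.79 TPM with alpelisib and from 0.987 to 3.02 TPM in EV cells. Of 14 genes tied to the study's question, most of them described above, 3 were higher and 5 lower than EV, becoming 4 and 3 after median-of-ratios scaling.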

How the data were processed

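RNA-seq of 9 DLD-1 libraries was used, 3 per group, and 9 LoVo libraries entered only the shared estimate of spread. The authors deposited TPM per gene, per the file headers. Named in the submitters' processing notes are hg38, STAR 2.7.10, Picard, HTSeq and DESeq2 without role or order, and the annotation release and strand setting are not given in the sources used here. No count or depth was given. Of 61806 identifiers, 61757 matched a symbol.

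log2(TPM + 1) was fitted with limma 3.58.1 in R 4.3.3 (trend, 6 groups, 18 libraries, no block) over genes with TPM of at least 1 in 3 of the 6 libraries, with Benjamini-Hochberg adjustment over 15447 genes. Fold changes on this scale understate low genes. At the filter's edge, MROH3P had a third-highest value of 1.00 TPM and PPP1R3G just missed it. Of the genes that passed, 196 did so only through alpelisib libraries and 106 only through EV libraries. The script was tested on simulated data.

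Named genes were the 12 largest non-overlapping changes each way with a mean of at least 2 TPM, the study's own genes, 6 per position, up to 4 per list with the smallest p, members that show how a list splits, and the 4 largest TPM differences each way. IER3, ABCB1, TMPRSS4 and other list members were chosen after their values were seen. Members and the 43 lists were chosen with earlier results of these data known, and some list members are not reported here. The alternatives were other pseudocounts, filters, scalings, margins, a replicate block, fewer libraries and leaving out each library.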

Additional observations from a re-analysis of the deposited data

How the results depend on the processing

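Leaving out single libraries moved the number of genes called between LIN28B plus alpelisib and EV cells from 5645 to as few as 4057, without alpelisib replicate 1, and the fit of the 9 DLD-1 libraries alone called 6310. Between 3957 and 5588 of the 5645 calls were kept under the alternatives run, and none was called in the opposite direction. The positions of genes shifted in LIN28B cells moved more. Without the filter, 25 genes had passed EV, 56 stayed closer and 46 were unresolved. Median-of-ratios scaling gave 131 closer, and the 9 DLD-1 libraries gave 95 passed. With a margin of 0.3 log2, 48 returned and 198 were unresolved, and with a margin of 1, 12 were unresolved. Leaving out single libraries gave 15 to 41 passed, 59 to 138 returned, 37 to 68 closer, 52 to 124 further and 22 to 107 unresolved.

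Same-numbered replicates did not deviate together in every pair (correlations from −0.106 to 0.169). Replicates of unlike number were not correlated, so whether the number marks a shared culture or batch cannot be told. With the replicate block in 18 libraries, 4809 genes were called. Genes called in LIN28B cells against EV were then 203, of which 17 passed, 58 returned, 37 stayed closer, 57 further and 34 were unresolved. With the block in the 9 DLD-1 libraries, 5762 were called, 94 returned, 74 stayed further and 31 were unresolved. The causes were not tested.

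For the 279 genes recomputed under 16 alternatives, 4247 values kept their call and direction, 148 lost the call, 27 gained one and 8 moved without a call, and no call reversed. IGF2BP2 moved to 0.087 log2 (limma adjusted p = 0.376) after median-of-ratios scaling. TPM keeps no depth, so the precision of low genes is unknown.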
